A study of Mus musculus with 21 samples.

Results

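The genes described here are costimulatory receptors and ligands of T cells and antigen-presenting cells, chosen by name: Icos, Cd28, Tnfrsf4, Tnfrsf9, Tnfrsf18, Cd27, Cd40lg, Cd80 and Cd86. Of these 9 genes, 8 had a named probe set, 1 each, among the 22206 probe sets and 19505 named genes of the array, and Cd27 was not analysed here. Levels were read in 21 subcutaneous tumours of Hepa1-6, an established mouse hepatoma line, grown in female C57BL/6J mice that were 5 to 6 weeks old at injection, with 1 Clariom S array per mouse. Tumours were randomised at 200 mm3 and collected on day 13. The 6 placebo mice received drug vehicle and polyclonal IgG. Lenvatinib, an oral inhibitor of several receptor tyrosine kinases that include the VEGF and FGF receptors, was gavaged daily at 10 mg/kg in 5 mice. Anti-PD1, the J43 antibody against mouse PD-1, was injected intraperitoneally at 10 mg/kg in 5 mice, at intervals of 3 days and in 5 doses. The combination arm of 5 mice received both. The last lenvatinib dose came 2 h and the last antibody dose 1 day before collection, and 30 mg of tissue went into each RNA extract. Whether the single-agent arms also received vehicle or IgG is not given in the sources used here. All tumours came from 1 cell line under the skin, and the RNA is that of the whole tissue, so fewer cells of a type and less RNA per cell cannot be told apart in any value below.

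A T cell needs a second signal beside its antigen receptor to expand and survive. The best known route is CD28, which binds CD80 (B7-1) and CD86 (B7-2) on antigen-presenting cells, and CTLA-4 competes for the same ligands. ICOS is a relative of CD28 that appears after activation, and OX40 (Tnfrsf4), 4-1BB (Tnfrsf9) and GITR (Tnfrsf18) are receptors of the TNF receptor family that signal through TRAF adaptors to NF-kappaB. CD40 ligand (Cd40lg), found mainly on activated CD4 T cells, acts in the other direction and licenses dendritic cells, B cells and macrophages through CD40. PD-1, the target of the antibody, recruits a phosphatase that dampens signalling from both the antigen receptor and CD28.

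Of these genes, 7 shared 1 order of arm means, lowest in anti-PD1, then lenvatinib, then placebo, and highest in the combination. Tnfrsf9 was the exception, with anti-PD1 lowest, combination and placebo close together, and lenvatinib highest. No difference between arms passed the threshold of a Benjamini-Hochberg adjusted p under 0.05 over all probe sets (limma), for these genes or for any other probe set. At an unadjusted p under 0.05, 7 of the 8 genes were higher in the combination than in anti-PD1 (4.85% of all probe sets were) and 6 of the 8 were lower in anti-PD1 than in placebo (2.68% of all probe sets were). All levels are log2 signals, so a difference of 1 is a ratio of 2, and levels are compared within a gene only, since probe sets bind with different strength.

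Across the arrays, Pearson correlations between pairs of arrays ran from 0.831 to 0.988. The hybridization control spikes were brighter on 6 arrays, with means of at least 11.33, than on the other 15, at 10.91 or less. The bright arrays were those of mouse 1 in the lenvatinib, anti-PD1 and combination arms, of lenvatinib mouse 2, and of mice 4 and 6 given placebo. All 6 measured hepatoma markers had means over all mice above the negative-control median of 4.10, from 5.70 to 11.37. The 95th percentile of negative controls was 7.35, above the lowest of these means. Single tumours fell below the median, such as an anti-PD1 mouse at 3.75 for Afp and a placebo mouse at 3.45 for Hnf4a. Combination mice 3 and 4 stood apart in B cell markers, with mean scores of 1.47 and 3.61 against 0.52 or less in all other mice, and in lymph node stroma markers, at 1.47 and 3.47 against 0.55 or less. A score here is the mean log2 level of a marker list after centring each gene on all 21 mice. Anti-PD1 mouse 2 stood apart in tissue content: it had the lowest T cell, hepatoma and mitosis scores of all mice, at -1.63, -2.65 and -2.12, the highest adipocyte and endothelial scores, at 3.52 and 2.24, and a skeletal muscle score of 3.38. These libraries are taken up again beside the comparisons.

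**Figure D1:**
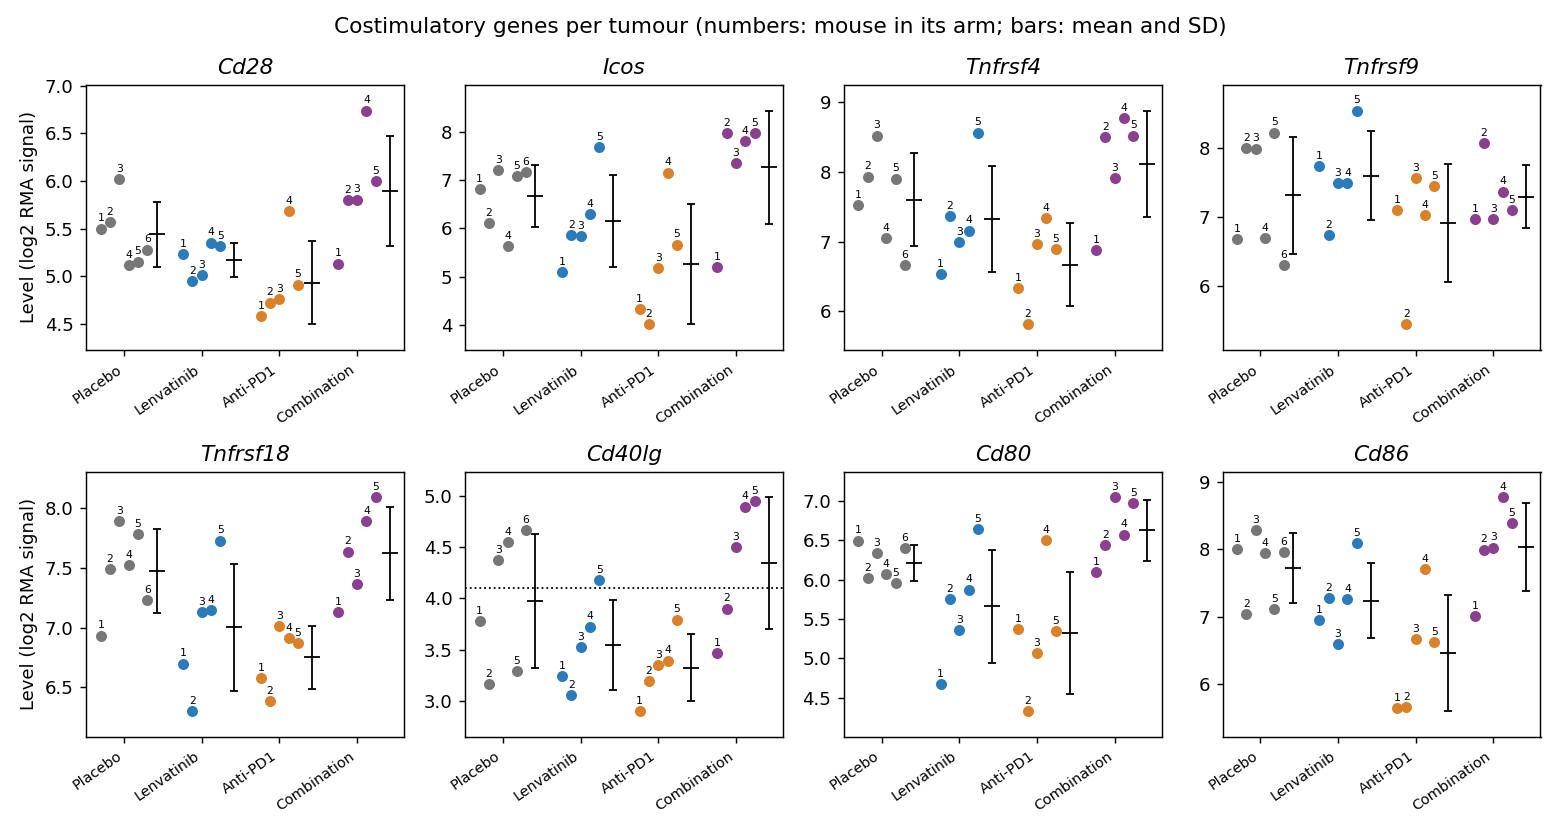
Log2 RMA signal (y axis) of the 8 costimulatory genes in each tumour (points, numbered by mouse) in the 4 arms, with the arm mean and SD beside the points. The dotted line in the Cd40lg panel is the negative-control median of 4.10. Anti-PD1 mouse 2 and combination mouse 1 lie low in their arms for several genes, and anti-PD1 mouse 4 lies high.

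Cd28, the receptor through which naive T cells take the second signal, had placebo levels from 5.11 to 6.02 with a median of 5.39. The lenvatinib mice were at 5.23, 4.95, 5.01, 5.35 and 5.31, and the anti-PD1 mice at 4.58, 4.72, 4.76, 5.68 and 4.91. Combination levels were 5.13, 5.80, 5.80, 6.74 and 6.00. All 5 combination mice lay above the anti-PD1 mean, and the arms overlapped only through anti-PD1 mouse 4, which was high, and combination mouse 1, which was low. The combination lay 0.96 ± 0.25 above anti-PD1 (difference ± SE, here and below), with a 95% interval from 0.44 to 1.49 and adjusted p = 0.157 (limma). Against lenvatinib the combination was higher by 0.72 ± 0.25 (adjusted p = 0.78, limma). Anti-PD1 lay below placebo, with a difference of -0.51 ± 0.24 (adjusted p = 1, limma).

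Icos, the inducible relative of Cd28, varied more between mice than 97.7% of all probe sets. Placebo levels ran from 5.64 to 7.21 with a median of 6.95, and the lenvatinib mice were at 5.09, 5.86, 5.84, 6.29 and 7.68. The anti-PD1 mice were at 4.33, 4.01, 5.17, 7.16 and 5.66, and the combination mice at 5.20, 7.98, 7.35, 7.81 and 7.97. All combination mice but 1 lay above every anti-PD1 mouse, while combination mouse 1 lay among the low anti-PD1 values. For Icos the combination exceeded anti-PD1 by 2.00 ± 0.59, a ratio of 3.99, with a 95% interval from 0.77 to 3.22 and adjusted p = 0.214 (limma). Without combination mouse 1 the difference was 2.51 and passed, at adjusted p = 0.0222 (limma). Anti-PD1 against placebo gave -1.40 ± 0.56 (adjusted p = 1, limma), and combination against lenvatinib gave 1.11 ± 0.59 (unadjusted p = 0.0733).

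Cd28, Ctla4 and Icos are neighbours in that order among the protein-coding genes of RefSeq on GRCm38.p6. Over the 21 mice the Spearman rho between Icos and Cd28 was 0.85, and it was 0.64 after each arm's mean was removed. Ctla4, the inhibitory competitor for Cd80 and Cd86, was at 5.46 ± 1.10 (SD, n = 5) in the combination and 4.08 ± 0.79 in anti-PD1, which is at the negative-control median. That difference of 1.38 ± 0.52 did not pass (adjusted p = 0.414, limma). Icosl, the ligand of ICOS, differed by 0.84 ± 0.41 in the same pair (adjusted p = 0.673, limma).

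Among the receptors of the TNF receptor family, Tnfrsf4 and Tnfrsf18 lie next to each other in RefSeq on GRCm38.p6, and both showed the shared order of arms, while Tnfrsf9, elsewhere on the same chromosome, did not. Their start regions are shown from 250 bases before to 50 after the RefSeq start, each read 5′ to 3′ on the gene's strand. Whether these sequences bear on the order of arms was not tested. Capitals mark matches, on either strand, to the hypoxia response core ACGTG, to the AP-1 motif TGANTCA and to the NF-kappaB motif. The windows are Tnfrsf4 at chr4:156013445-156013744, Tnfrsf18 at chr4:156026072-156026371 and, of 2 listed for Tnfrsf9, the second at chr4:150927749-150928048, all on the plus strand of GRCm38.p6.
Tnfrsf4: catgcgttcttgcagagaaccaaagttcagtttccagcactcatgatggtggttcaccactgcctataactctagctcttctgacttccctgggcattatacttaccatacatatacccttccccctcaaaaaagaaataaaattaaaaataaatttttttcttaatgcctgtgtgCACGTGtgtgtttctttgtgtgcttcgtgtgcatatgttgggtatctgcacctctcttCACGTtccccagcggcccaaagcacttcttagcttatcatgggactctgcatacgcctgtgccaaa
Tnfrsf18: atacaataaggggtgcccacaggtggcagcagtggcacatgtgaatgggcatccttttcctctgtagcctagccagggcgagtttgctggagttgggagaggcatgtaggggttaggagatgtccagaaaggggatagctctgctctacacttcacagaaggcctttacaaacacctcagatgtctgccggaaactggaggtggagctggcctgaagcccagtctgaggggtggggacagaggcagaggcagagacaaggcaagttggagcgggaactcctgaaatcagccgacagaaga
Tnfrsf9: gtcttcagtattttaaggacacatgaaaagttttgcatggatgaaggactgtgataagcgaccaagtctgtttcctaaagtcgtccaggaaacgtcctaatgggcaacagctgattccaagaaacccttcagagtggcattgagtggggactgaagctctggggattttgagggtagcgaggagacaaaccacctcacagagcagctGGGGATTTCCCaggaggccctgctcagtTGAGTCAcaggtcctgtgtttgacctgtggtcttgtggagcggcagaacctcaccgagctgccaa

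The Tnfrsf4 window held the hypoxia core in 2 places, 1 of them the palindrome read on both strands, and no match to AP-1 or NF-kappaB. The Tnfrsf18 window held none of these 3 motifs. The printed Tnfrsf9 window held an NF-kappaB match followed by an AP-1 match, and the other Tnfrsf9 window, at chr4:150919905-150920204, held none of the 3. The short NFAT core GGAAA, not capitalised, was found in all 4 windows. Of 32851 such windows of 300 bases, 19.62% held the hypoxia core, 7.808% AP-1, 6.925% NF-kappaB and 61.34% the NFAT core. A match to the NFAT core is thus common, and matches to the other 3 motifs are less so. Of the 9 genes, 5 had a window in the RefSeq table, and a match is a run of letters only.

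Tnfrsf4, which encodes OX40, a receptor of recently activated and regulatory T cells, ran from 6.66 to 8.51 in placebo with a median of 7.71. The lenvatinib mice were at 6.53, 7.36, 6.99, 7.16 and 8.56, and the anti-PD1 mice at 6.33, 5.82, 6.97, 7.34 and 6.89. Combination levels were 6.88, 8.50, 7.91, 8.77 and 8.51. All combination mice but mouse 1 lay above every anti-PD1 mouse, and all 5 anti-PD1 mice lay below the placebo mean. The difference between combination and anti-PD1 was 1.45 ± 0.41, a ratio of 2.72, with a 95% interval from 0.59 to 2.30 and adjusted p = 0.193 (limma). Anti-PD1 against placebo gave -0.93 ± 0.39 (adjusted p = 1, limma). Tnfsf4, the OX40 ligand, differed by 0.031 ± 0.74 between combination and anti-PD1.

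Tnfrsf18, which encodes GITR, a receptor that is high on regulatory T cells and rises on other T cells with activation, ran from 6.93 to 7.89 in placebo with a median of 7.51. The lenvatinib mice were at 6.70, 6.30, 7.13, 7.14 and 7.73, and the anti-PD1 mice at 6.58, 6.38, 7.01, 6.91 and 6.87. Combination levels were 7.13, 7.64, 7.37, 7.89 and 8.09. It was the 1 gene of the 8 whose combination mice all lay above all anti-PD1 mice, a separation that 0.527% of all probe sets showed in that direction. Combination exceeded anti-PD1 by 0.87 ± 0.25 (95% interval 0.36 to 1.39, adjusted p = 0.193, limma) and lenvatinib by 0.62 ± 0.25 (adjusted p = 0.78, limma). All 5 anti-PD1 mice lay below the placebo mean, with a difference of -0.73 ± 0.24 (adjusted p = 0.946, limma). Its ligand gene Tnfsf18 was dim, with arm means below the negative-control median, and differed by -0.38 ± 0.16 between combination and anti-PD1 (adjusted p = 0.521, limma).

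Tnfrsf9, which encodes 4-1BB, a receptor induced on activated CD8 T cells and also found on other cells, ran from 6.31 to 8.23 in placebo with a median of 7.35. The lenvatinib mice were at 7.74, 6.74, 7.50, 7.50 and 8.55, and the anti-PD1 mice at 7.11, 5.45, 7.56, 7.03 and 7.45. Combination levels were 6.97, 8.07, 6.98, 7.37 and 7.10. All arms overlapped, and the low anti-PD1 mean rested on mouse 2. The difference between combination and anti-PD1 was 0.38 ± 0.43, with a 95% interval from -0.51 to 1.27 and unadjusted p = 0.385. The difference furthest from 0 was between lenvatinib and anti-PD1, at 0.68 ± 0.43 (adjusted p = 0.955, limma), and without anti-PD1 mouse 2 it was 0.32. Its ligand Tnfsf9 had arm means from 3.42 to 3.68, all below the negative-control median, and is not compared.

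Cd40lg, the signal from helper T cells to antigen-presenting cells, was dim, with 14 of 21 mice below the negative-control median of 4.10, so its differences lie near the floor of the array. Placebo levels ran from 3.16 to 4.66 with a median of 4.08, and the lenvatinib mice were at 3.24, 3.06, 3.53, 3.73 and 4.18. The anti-PD1 mice were at 2.90, 3.19, 3.35, 3.39 and 3.79, all below the negative-control median. Combination mice were at 3.47, 3.90, 4.50, 4.89 and 4.95, and mice 3, 4 and 5 lay above that median. Relative to anti-PD1 the combination was higher by 1.01 ± 0.32 (adjusted p = 0.265, limma) and relative to lenvatinib by 0.79 ± 0.32 (adjusted p = 0.78, limma), with overlap in both. Cd40, its receptor, differed by 0.27 ± 0.33 between combination and anti-PD1.

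Cd80, the ligand that antigen-presenting cells raise on activation, lay within 5.96 to 6.50 in all 6 placebo mice, with a median of 6.21. The lenvatinib mice were at 4.67, 5.76, 5.36, 5.88 and 6.64, and the anti-PD1 mice at 5.37, 4.33, 5.07, 6.50 and 5.34. Combination levels were 6.09, 6.44, 7.05, 6.57 and 6.97. Placebo and combination mice lay close together, while lenvatinib and anti-PD1 spread widely, with lenvatinib mouse 5 and anti-PD1 mouse 4 the highest and lenvatinib mouse 1 and anti-PD1 mouse 2 the lowest of their arms. Relative to anti-PD1 the combination was higher by 1.30 ± 0.34, a ratio of 2.47 (95% interval 0.60 to 2.01, adjusted p = 0.155, limma). Against lenvatinib it was higher by 0.96 ± 0.34 (adjusted p = 0.78, limma), and anti-PD1 against placebo gave -0.89 ± 0.32 (adjusted p = 1, limma). Its RefSeq start region, at chr16:38458683-38458982 on the plus strand of GRCm38.p6, is shown as that of the antigen-presenting cell ligand in the table, with the same capitals and 1 match, to AP-1.
Cd80: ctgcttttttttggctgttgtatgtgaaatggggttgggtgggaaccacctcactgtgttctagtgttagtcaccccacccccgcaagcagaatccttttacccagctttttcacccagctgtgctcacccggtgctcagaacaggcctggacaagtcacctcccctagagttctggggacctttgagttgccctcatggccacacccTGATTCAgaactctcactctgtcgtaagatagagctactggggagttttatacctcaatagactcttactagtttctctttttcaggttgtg

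Cd86, the second ligand of CD28, is present on resting dendritic cells and macrophages. Placebo levels ran from 7.04 to 8.29 with a median of 7.96, and the lenvatinib mice were at 6.95, 7.28, 6.59, 7.26 and 8.10. The anti-PD1 mice were at 5.63, 5.65, 6.66, 7.71 and 6.62, and the combination mice at 7.01, 8.0, 8.03, 8.78 and 8.39. Of the anti-PD1 mice only mouse 4 reached the range of the combination arm. Combination exceeded anti-PD1 by 1.58 ± 0.39, a ratio of 3.00, with a 95% interval from 0.78 to 2.39 and adjusted p = 0.14 (limma), the smallest adjusted p among the 8 genes in any pair. Anti-PD1 against placebo gave -1.27 ± 0.37, with all 5 anti-PD1 mice below the placebo mean (adjusted p = 0.82, limma). Cd80 and Cd86 followed each other closely over the mice, with a rho of 0.88 over 21 mice and 0.70 after arm means were removed.

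Neighbouring arms in the order of means were apart by less than the larger SD of the pair, and their ranges overlapped, for every gene with 1 exception. For Cd80 the step from placebo to combination was 0.41 with a larger SD of 0.39, and those ranges overlapped too. The comparisons below share arms, so their differences are not independent of each other. Where 1 mouse is left out, counts at an unadjusted p under 0.05 are given without the share of all probe sets. They show only how far the count moved.

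Lenvatinib against placebo asks what the kinase inhibitor did alone. Of the 8 genes 7 had a difference below 0, from -0.55 to 0.29 with a median of -0.45, beside a median of -0.0064 over all probe sets. Median differences were -0.41 for T cell markers (0 of 11 lower at an unadjusted p under 0.05) and -0.69 for macrophage markers (2 of 10 lower). They were -3.19 for adipocyte markers (3 of 5 lower), 1.92 for hepatoma markers (3 of 6 higher) and 1.47 for mitosis markers (3 of 4 higher). Of these markers 0 were past the adjusted threshold, and their part in the result was not tested. None of the 8 passed in limma, where 0% of 22206 probe sets did. At an unadjusted p under 0.05, 0 were higher (2.92% of all probe sets) and 0 lower (4.05%). The smallest p values belonged to Tnfrsf18, at -0.47 ± 0.24 (unadjusted p = 0.0589), and Cd80, at -0.55 ± 0.32 (unadjusted p = 0.101). With array weights in the limma fit, 0 genes passed as well, and without lenvatinib mouse 5 the count at an unadjusted p under 0.05 was 2.

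Anti-PD1 against placebo asks what the antibody did alone. All 8 genes had a difference below 0, from -1.40 for Icos to -0.40 for Tnfrsf9, with a median of -0.81 against a median of -0.0020 over all probe sets. None passed in limma, and 0% of all probe sets did; array weights gave 0 too. At an unadjusted p under 0.05, 6 of 8 were lower (2.68% of all probe sets) and 0 higher (1.38%). These were Icos, Cd28, Tnfrsf4, Tnfrsf18, Cd80 and Cd86. Leaving out anti-PD1 mouse 2, the tumour with low hepatoma and high adipocyte and endothelial scores, brought that count to 2, and leaving out anti-PD1 mouse 1 to 3. Without combination mouse 1 the count was 7. The share of all probe sets in those fits is not given here. With all mice, T cell markers had a median of -0.88 (6 of 11 lower at such a p) and macrophage markers -1.03 (8 of 10 lower). Of these markers 0 passed, and their part in the result was not tested. Cd70, the ligand of CD27, differed by 0.52 ± 0.21 (adjusted p = 1, limma) at arm means of 2.57 in placebo and 3.09 in anti-PD1, below the negative-control median.

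Combination against placebo asks what both agents did together. Of the 8 genes 7 had a difference above 0, and the range was -0.019 to 0.59 with a median of 0.39. None passed in limma, with or without array weights, where 0% of probe sets did. The counts at an unadjusted p under 0.05 were 0 higher (1.01% of all probe sets) and 0 lower (1.3%), and 3 higher without combination mouse 1. Cd28 had the smallest p, at 0.46 ± 0.24 (unadjusted p = 0.0741), followed by Tnfrsf4 at 0.52 ± 0.39 (unadjusted p = 0.202). The 95% interval for Icos, from -0.58 to 1.77, covered both directions.

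Combination against lenvatinib asks what the antibody added to the inhibitor. Of the 8 genes, 7 had a difference above 0, from -0.31 for Tnfrsf9 to 1.11 for Icos, with a median of 0.79. None passed in limma, where 0% of probe sets did. With array weights Cd28 passed (adjusted p = 0.0483), the 1 gene of the 8 that did, beside 3.18% of all probe sets in that fit. At an unadjusted p under 0.05, 4 were higher (3.87% of all probe sets) and 0 lower (2.53%), namely Cd28, Tnfrsf18, Cd40lg and Cd80. That count was 0 without combination mice 3 and 4, the tumours rich in B cell and lymph node stroma markers, where 4.17% of all probe sets had such a p in either direction. It was 2 when lenvatinib mouse 1 or 2, or combination mouse 4 or 5, was left out, and 7 without lenvatinib mouse 5 or combination mouse 1. The share of all probe sets in those fits is not given here, so these counts have no background beside them.

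Combination against anti-PD1 asks what the inhibitor added to the antibody, and its median was the furthest from 0 of the 6 pairs. All 8 were above 0, from 0.38 to 2.00 with a median of 1.16, beside a median of -0.011 over all probe sets. None passed in limma, where 0% of probe sets did and the smallest adjusted p of any probe set was 0.124. At an unadjusted p under 0.05, 7 were higher (4.85% of all probe sets) and 0 lower (2.79%), all but Tnfrsf9. With array weights 6 passed, namely Icos, Cd28, Tnfrsf4, Tnfrsf18, Cd80 and Cd86, and 2.27% of all probe sets passed in that fit. Without combination mouse 1, 5 passed (Icos, Cd28, Tnfrsf4, Cd80 and Cd86), beside 1.52% of all probe sets. Without anti-PD1 mouse 4, 3 did (Cd28, Cd80 and Cd86), beside 0.392%. Without the 6 arrays with bright control spikes 1 passed, Tnfrsf4 at 1.67 and adjusted p = 0.0496 (limma), beside 1.05% of all probe sets, and 14.6% of all probe sets had an unadjusted p under 0.05 there in either direction. Without combination mice 3 and 4 none passed and 6 were at an unadjusted p under 0.05, with differences over the 8 genes from 0.46 to 1.78, and 6.42% of all probe sets had such a p in either direction.

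Lenvatinib against anti-PD1 sets the single agents side by side. All 8 differences were above 0, from 0.22 to 0.88 with a median of 0.50. None passed in limma, with or without array weights, where 0% of probe sets did, and at an unadjusted p under 0.05, 0 were higher (1.55% of all probe sets) and 0 lower (3.04%). Cd86 had the smallest p, at 0.78 ± 0.39 (unadjusted p = 0.0588), and without anti-PD1 mouse 4 the count was 2 higher.

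Departure from additivity compares the step from anti-PD1 to combination with the step from placebo to lenvatinib, on the log2 scale. All 8 values were above 0, from 0.093 for Tnfrsf9 to 2.51 for Icos, with a median of 1.58. None passed in limma, where 0% of probe sets did, and at an unadjusted p under 0.05, 7 were higher (5.7% of all probe sets) and 0 lower (3.31%). Cd80 gave 1.86 ± 0.47 (adjusted p = 0.188, limma), Tnfrsf18 1.35 ± 0.34 (adjusted p = 0.19, limma) and Cd86 2.08 ± 0.54 (adjusted p = 0.198, limma). With array weights 6 genes passed, where 7.62% of all probe sets did. Without combination mouse 1, 5 genes and 1.44% of all probe sets passed, and without lenvatinib mouse 5, 2 genes and 0.365% did.

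**Figure D2:**
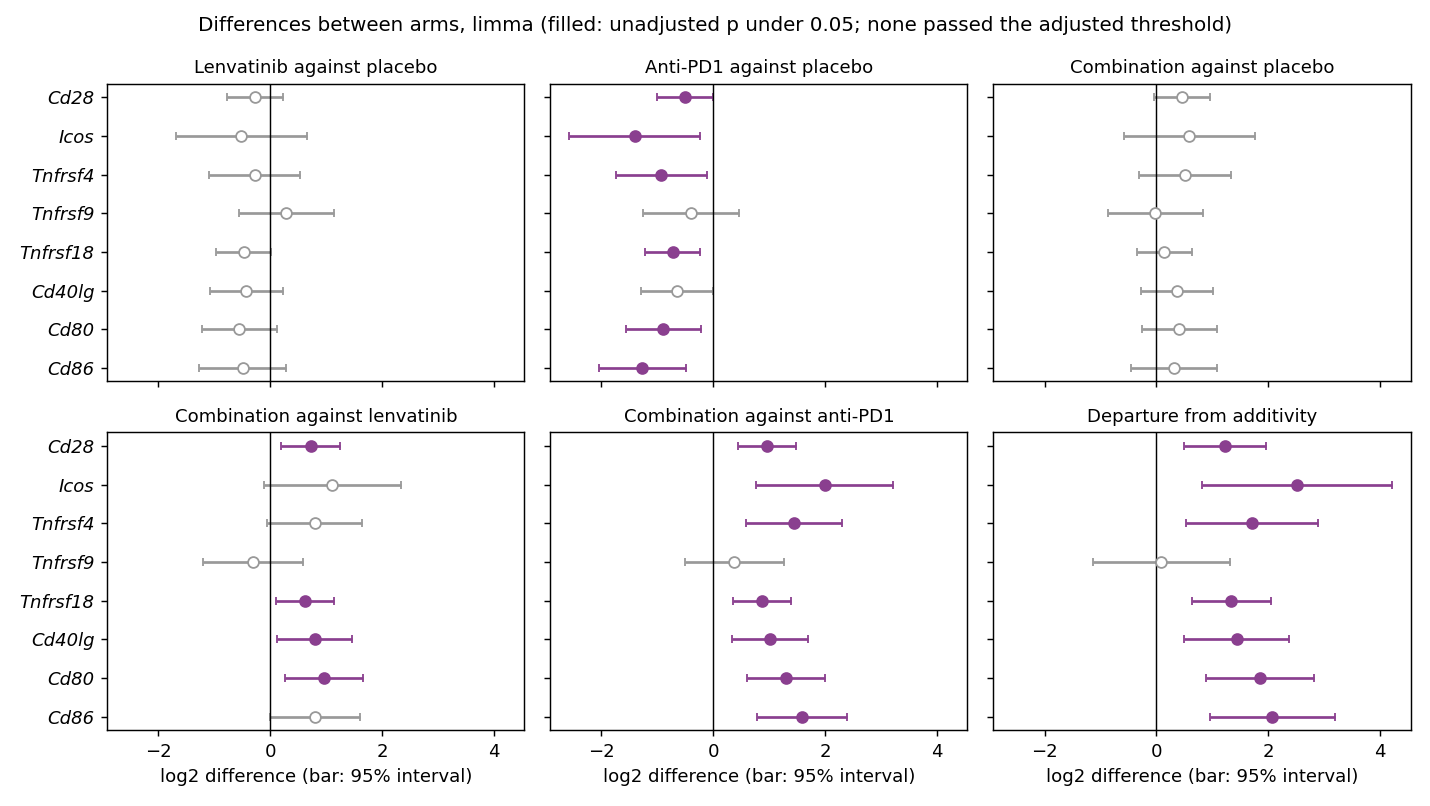
Log2 differences (x axis) between arms for the 8 genes, with 95% intervals from limma. Filled points have an unadjusted p under 0.05: 7 genes in combination against anti-PD1 and in the departure from additivity, 6 in anti-PD1 against placebo and 4 in combination against lenvatinib. No point passed the adjusted threshold.

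Marker lists of T cells, macrophages and dendritic cells moved with these genes other than Tnfrsf9. The T cell list holds 11 genes, such as Cd3e, Lat and Cd5 and none of the genes above, all measured and all with means above the negative-control median. Its score ran from -1.63 to -0.15 in anti-PD1, from -0.57 to 0.57 in lenvatinib, from -0.21 to 0.55 in placebo and from -0.30 to 1.72 in the combination. Of its 11 genes, 10 were higher in combination than anti-PD1 at an unadjusted p under 0.05, with a median difference of 1.47, and 0 passed. Over all probe sets 4.85% were higher at such a p, and that share also stands beside the lists below. The macrophage list, with 10 of 11 genes measured, had a score from -1.34 to 0.43 in anti-PD1 and from -0.59 to 1.30 in the combination, with 8 of 10 higher at an unadjusted p under 0.05. The dendritic cell list, with Flt3 below the negative-control median, had 6 of 8 higher, and its score ran from -0.77 to -0.055 in anti-PD1 and from -0.10 to 1.01 in the combination. The B cell list, with Ms4a1 below that median, had 6 of 7 higher, and its score ran from -0.996 to 0.076 in anti-PD1 and from -0.30 to 3.61 in the combination. Combination mice 3 and 4 were at 1.47 and 3.61, while mice 1, 2 and 5 were at -0.30, 0.067 and 0.14. After arm means were removed, Spearman rho of the 8 genes with the B cell score ran from -0.10 for Tnfrsf4 to 0.34 for Cd28.

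With the T cell score as a covariate in the same fit, the differences between combination and anti-PD1 ran from -0.48 to 0.26 and none of the 8 had an unadjusted p under 0.05. Icos went from 2.00 to -0.21 ± 0.56, Tnfrsf4 from 1.45 to -0.010 ± 0.42 and Cd86 from 1.58 to 0.16 ± 0.38. With the macrophage score the range was -0.13 to 0.59, again with none, and Icos stood at 0.29 ± 0.41 and Cd86 at 0.59 ± 0.33. In anti-PD1 against placebo the T cell score left a range of -0.43 to 0.11 and the macrophage score -0.40 to 0.078, with none of the 8 at an unadjusted p under 0.05. The scores are themselves readouts of these tumours and differ between the arms, so these fits give the differences at an equal score and not an effect of treatment. A T cell receptor gene and a macrophage ligand gene both follow either score, and the 2 cannot be told apart in these tissues.

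**Figure D3:**
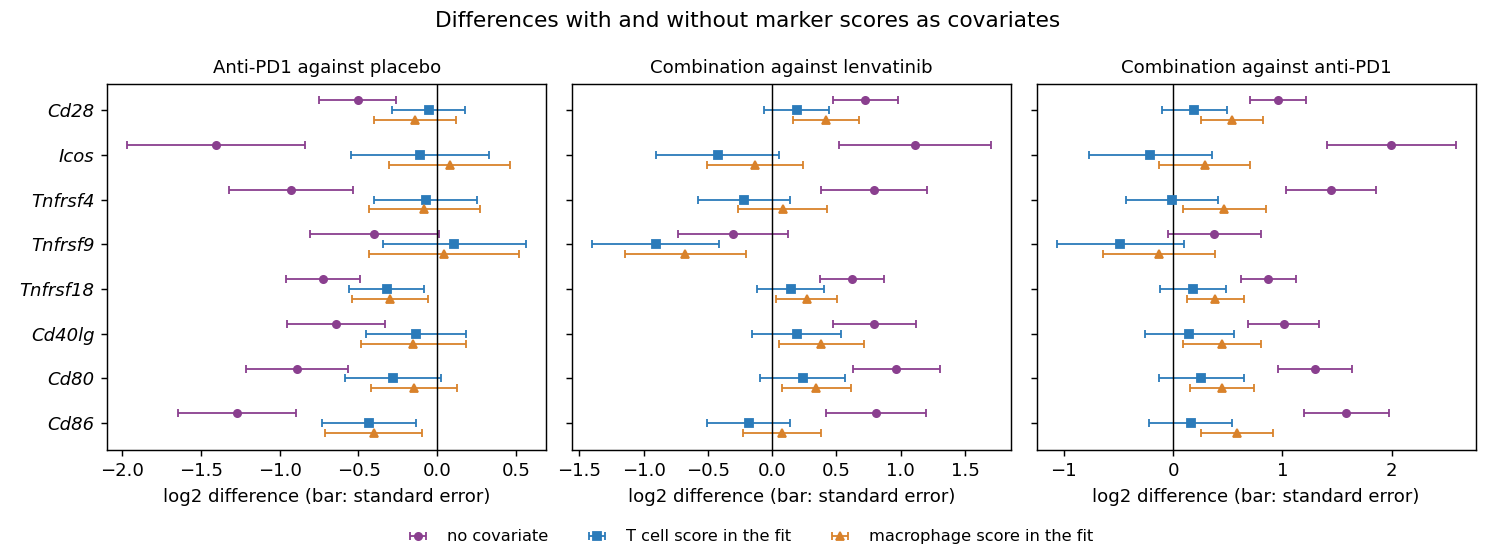
Log2 differences ± SE (x axis) of the 8 genes in 3 comparisons, fitted without a covariate (circles), with the T cell score (squares) and with the macrophage score (triangles). In combination against anti-PD1 the points run from 0.38 to 2.00 without a covariate, from -0.48 to 0.26 with the T cell score and from -0.13 to 0.59 with the macrophage score.

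Over the single mice, 7 of the genes varied together and Tnfrsf9 followed them less closely. Among the 21 pairs that leave out Tnfrsf9, Spearman rho over the 21 mice ran from 0.49 to 0.88 with a median of 0.76, and with arm means removed the median was 0.63. The 7 pairs with Tnfrsf9 ran from -0.096 to 0.44 with a median of 0.21, and with arm means removed the median was 0.28. Within arms Tnfrsf9 was closer to the other TNF receptor family genes, at 0.65 with Tnfrsf4 and 0.62 with Tnfrsf18, values above those of some other pairs, such as 0.22 for Tnfrsf4 with Cd40lg. All points share their array and its normalization, and these values are given as a description. Tnfrsf9 lay nearest to Tnfrsf4 (0.44) and Tnfrsf18 (0.43) and was near 0 with Cd80 (-0.036) and Cd86 (0.030).

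Several marker scores set Tnfrsf9 apart from the other genes as well, and the cytotoxic score did not. The Spearman correlation with the T cell score was 0.91 for Cd86, 0.89 for Icos and Cd80, 0.81 for Cd28, 0.80 for Tnfrsf4 and Tnfrsf18 and 0.68 for Cd40lg, and it was 0.16 for Tnfrsf9. With the dendritic cell score Cd86 had 0.93 and Cd80 0.88, and with the macrophage score 0.87 and 0.86. After arm means were removed, Cd86 had 0.82 with the dendritic cell, 0.72 with the macrophage and 0.75 with the T cell score. For Cd80 these were 0.69, 0.71 and 0.57. With the CD8 score of Cd8a and Cd8b1, Icos reached 0.93 and Tnfrsf9 0.26. Tnfrsf9 had its higher values with the mitosis score (0.58), the cytotoxic score (0.57) and the hepatoma score (0.51). The other 7 genes had values from -0.35 to 0.040 with the mitosis score and from -0.37 to -0.027 with the hepatoma score. With the cytotoxic score, of granzymes, Prf1 and Nkg7, Icos had 0.78 and Tnfrsf18 0.79. With arm means removed, Tnfrsf9 had 0.37 with the T cell score, and the other 7 genes ran from 0.44 to 0.81. For the CD8 score these values were 0.48, and 0.48 to 0.87. For the mitosis score they were 0.55, and -0.23 to 0.31, with Tnfrsf18 the highest. For the hepatoma score they were 0.55, and -0.28 to 0.29, with Tnfrsf4 the highest. For the cytotoxic score they were 0.73, and 0.20 to 0.74, with Cd40lg the lowest and Tnfrsf4 the highest.

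**Figure D4:**
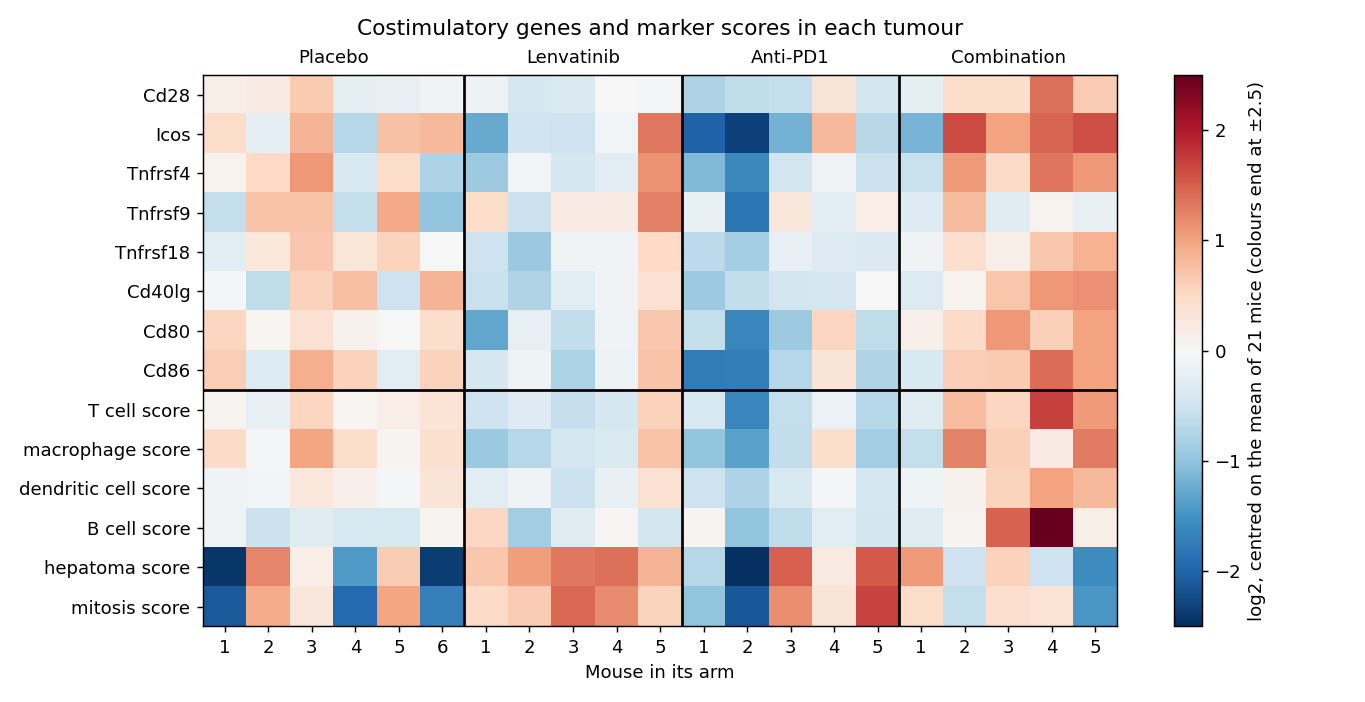
Log2 level of each gene (upper rows) and score of each marker list (lower rows), centred on the mean of the 21 mice, for every mouse (columns) by arm. The genes other than Tnfrsf9 and the T cell, macrophage and dendritic cell scores are below average in most anti-PD1 mice and above it in combination mice 2 to 5. Tnfrsf9 is high in lenvatinib mouse 5 and low in anti-PD1 mouse 2.

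The named genes most like each member over the 21 mice were sought among 3852 probe sets brighter than the 95th percentile of negative controls, 7.35. For Icos these were Cd53, a leukocyte tetraspanin, with a rho of 0.95, Cd8b1, a chain of the CD8 coreceptor, with 0.94, and Pld4 with 0.93. For Cd86 they were Hcls1, a cortactin relative of blood cells (0.96), Myo1g, a myosin of lymphocytes (0.95), and Csf2rb, the shared beta chain of the GM-CSF, IL-3 and IL-5 receptors (0.94). Cd80 lay nearest to Cd8b1 (0.91), Csf2rb (0.90) and Myo1f (0.90).

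Tnfrsf18 was most like Cd3e, a chain of the T cell receptor complex (0.88), Prkcd (0.86) and 9930111J21Rik1 (0.86). Tnfrsf4 was most like H2-DMb1, which loads peptides on MHC class II (0.94), Gpr35 (0.94) and Rhog (0.93). For Cd28 they were Ly6c2, a monocyte surface protein (0.88), H2-Q5 (0.88) and Glipr1 (0.87), and for the dim Cd40lg they were Cdc42se2 (0.90), Grb2 (0.89) and Rab8b (0.87). For Tnfrsf9 the 3 were Plaur, the urokinase receptor (0.90), Mmp13, a collagenase (0.87), and Slc2a1, the glucose transporter GLUT1 (0.82).

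Of the 8 binding partners, 2 were higher and 1 was lower in combination than in anti-PD1 at an unadjusted p under 0.05. Over all probe sets 4.85% were higher and 2.79% lower. The higher ones were Ctla4 and Cd274, which encodes PD-L1, a ligand of PD-1 that also binds CD80. Cd274 was at 9.23 ± 0.23 (SD, n = 5) in the combination and 8.28 ± 0.99 in anti-PD1, a difference of 0.96 ± 0.41 (adjusted p = 0.541, limma). It also lay 1.20 ± 0.41 higher in lenvatinib than in anti-PD1 (adjusted p = 0.955, limma). Tnfsf18 was the lower one. The median of the 8 partners in combination against anti-PD1 was 0.21. Among these partners Tnfsf9, Tnfsf18 and Cd70 had every arm mean below the negative-control median of 4.10, so this median includes genes near the floor.

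Of 17 other costimulatory receptors and ligands of lymphocytes, 10 were higher and 0 lower in combination than in anti-PD1 at an unadjusted p under 0.05. Their median was 0.80, and 0 passed. The shares over all probe sets were again 4.85% higher and 2.79% lower. Cd2, an adhesion and costimulatory receptor of T and NK cells, was at 7.83 ± 0.74 (SD, n = 5) in the combination and 6.06 ± 0.45 in anti-PD1, 1.77 ± 0.32 apart (adjusted p = 0.124, limma). Slamf6 differed by 2.19 ± 0.49 (adjusted p = 0.124, limma) and Ly9 by 1.94 ± 0.52 (adjusted p = 0.17, limma), both receptors of the SLAM family. In anti-PD1 against placebo, 6 of the 17 were lower (2.68% of all probe sets), among them Cd84 at -1.62 ± 0.53 (adjusted p = 0.941, limma).

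Of 16 measured genes of signalling below these receptors, of 21 listed, 6 were higher in combination than in anti-PD1 at an unadjusted p under 0.05. Their median was 0.48, and 0 passed. For this list and those that follow, the share of all probe sets that were higher was 4.85%. Vav1, an exchange factor downstream of CD28, differed by 1.99 ± 0.51 (adjusted p = 0.155, limma), the adaptor Grb2 by 1.01 ± 0.26 (adjusted p = 0.155, limma) and Prkcq, the protein kinase C theta of T cells, by 1.60 ± 0.44 (adjusted p = 0.175, limma). Of 12 genes known to be induced by T cell activation with costimulation, 3 were higher, with a median of 0.48 and 0 passing. Tnf differed by 1.12 ± 0.31 (adjusted p = 0.174, limma), and Il4 had a mean of 5.26 in placebo and 3.94 in anti-PD1, the latter below the negative-control median (adjusted p = 0.82, limma). Of 7 measured genes of mature dendritic cells, of 8 listed, 3 were higher, with a median of 0.28. Cd83, a maturation marker, was at 6.48 ± 0.32 (SD, n = 5) in the combination and 5.27 ± 0.63 in anti-PD1, 1.21 ± 0.27 apart (adjusted p = 0.124, limma). All these lists rest on the same 21 tumours and the same anti-PD1 arm as the genes above.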

How the data were processed

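Per the submitters' processing notes, the authors made the deposited log2 values with RMA in the oligo package, versions not named. Its background correction, quantile normalization and probe summary make levels relative within these arrays, and a shift common to most genes is lost. The genome build behind the array is not given in the sources used here. The table has 29129 rows; without 6923 control rows, 22206 probe sets entered the tests. The platform annotation gave 19572 of them 1 symbol, none several, and 2634 none here. Precision is limited by the number of arrays.

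Titles gave each mouse's arm. limma 3.58.1 (R 4.3.3) fitted 4 arm means over all 21 arrays with lmFit and eBayes, and 7 contrasts, with Benjamini-Hochberg adjustment within each. Tests are two-sided. Tumours are separate animals, so p measures the spread between mice. Promoter windows are RefSeq's on GRCm38.p6, and figures were drawn with matplotlib.

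The 9 genes, the gene lists and the tests were chosen with earlier results of these data known. Differences with a test are given for members with an unadjusted p under 0.05 in a comparison, or the 2 with the smallest p where none had one, beside values for the other members where the text describes them. Members of the other lists are named at an unadjusted p under 0.01, at most 3 per list and comparison, plus the binding partners. The 3 most similar genes were ranked by Spearman rho. Alternatives were array weights, a dim filter, trend and robust eBayes, cyclic loess, the 2 arms alone, a block by mouse number, the control spike signal and marker scores as covariates, and leaving out each mouse. Leaving out the 6 bright arrays or combination mice 3 and 4 was chosen after seeing the data. The fit was tested on simulated data before use.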

Additional observations from a re-analysis of the deposited data

Results flagged for a closer look

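Within arms, 32 combinations of gene and arm were tested for a single mouse far from the rest (Dixon's test at the 95% level), which chance flags in about 1 of 20, and 2 were found. For Icos, combination mouse 1 lay at 5.20, while the other 4 mice of the arm ran from 7.35 to 7.98. The gap was 0.776 of the arm's range. For Tnfrsf9, anti-PD1 mouse 2 lay at 5.45 and the other 4 from 7.03 to 7.56, a gap of 0.748 of the range. Combination mouse 1 had a bright-control array and anti-PD1 mouse 2 had the lowest T cell, hepatoma and mitosis scores of all mice, -1.63, -2.65 and -2.12, and the highest adipocyte and endothelial scores, 3.52 and 2.24, and the part of either in these values was not tested.

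Tnfrsf18 differed in opposite directions with the antibody in the absence and presence of lenvatinib, by -0.73 ± 0.24 and 0.62 ± 0.25. The reversal was not particular to Tnfrsf18: all 8 genes were below 0 in anti-PD1 against placebo, and 7 were above 0 in combination against lenvatinib. Tnfrsf18 was flagged since all 5 anti-PD1 mice lay below the placebo mean and all 5 combination mice above the lenvatinib mean. The share of all probe sets with that pattern is not given here. The difference of the 2 effects was 1.35 ± 0.34 (limma, adjusted p = 0.19), which did not pass, and that of Cd80 was 1.86 ± 0.47 (limma, adjusted p = 0.188).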

How the results depend on the processing

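Under 7 of the fits over all mice or pairs of arms, no count of passing genes changed: the dim filter, trend and robust eBayes, cyclic loess, the 2 arms alone, the spike signal, and either marker score as covariate. A threshold of 0.1 on the adjusted p gave 0 in each comparison too. Array weights gave 1 gene in combination against lenvatinib, 6 in combination against anti-PD1 and 6 in the departure from additivity. Leaving out 1 mouse gave 0 to 5 in combination against anti-PD1 (5 without combination mouse 1, 3 without anti-PD1 mouse 4), 0 to 5 in the departure from additivity (5 without combination mouse 1, 2 without lenvatinib mouse 5) and 0 elsewhere. Without the 6 bright arrays 1 gene passed in combination against anti-PD1, beside 233 of all probe sets. With the replicate block by mouse number 0 genes passed in every comparison. After arm means were removed, mice with the same number in different arms correlated at -0.63 to 0.56 (median 0.10). Mice with other numbers correlated at -0.58 to 0.74 (median -0.040), and 3 of 21 mice matched best with their own number. The titles name no pairing, and these values do not decide whether the numbers carry one.

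Over all 8 genes and 7 comparisons, 18 of 56 differences changed sign with the T cell score, 9 with the macrophage score, 1 without the bright arrays and 1 without combination mice 3 and 4. Of those named with a test, 7 did. With the T cell score Icos was -0.21 in combination against anti-PD1 and -0.31 in the departure from additivity, and Tnfrsf4 was -0.083 in combination against placebo, -0.010 in combination against anti-PD1 and -0.15 in the departure from additivity. With the macrophage score Icos was 0.078 in anti-PD1 against placebo and -0.21 in the departure from additivity. The cause was not tested. Cd40lg gave no value under the dim filter, which removes it, and the fit of 2 arms gives none for the departure from additivity. Arms of 5 or 6 mice and levels near the negative controls limit what can be detected, most of all for Cd40lg. The 95th percentile of the negative-control means was 7.35. Means over all mice lay below it for Cd40lg (3.80), Cd28 (5.36), Cd80 (5.97), Icos (6.35), Tnfrsf18 (7.22) and Tnfrsf9 (7.29). Those of Cd86 (7.38) and Tnfrsf4 (7.43) lay just above it.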
